A study of Homo sapiens with 4 samples.

Results

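The regions described here were dense clusters of GATA2 peaks in interphase, chosen by the measured positions of the asynchronous peaks themselves. Neighbouring asynchronous peaks on a chromosome were chained when the gap between their edges was at most 12500 bp, and every chain of 5 or more peaks was kept. This gave 581 clusters out of 20083 chains, holding 3604 of the 31777 asynchronous peaks (11.3%). Mitotic peaks were counted with a cluster when they overlapped its span, which held for 276 of the 1648 mitotic peaks (16.7%, 95% exact binomial interval 15.0 to 18.6). GATA2 was mapped by chromatin immunoprecipitation and sequencing (ChIP-seq) in K562 cells, an established line derived from chronic myeloid leukaemia. The asynchronous group was a cycling culture and the mitotic group was a culture arrested with nocodazole, sorted for the mitotic phospho-epitope MPM-2 and pooled over several sorts, which left a minority of asynchronous cells. Both groups were fixed with disuccinimidyl glutarate followed by formaldehyde and precipitated with the same antibody to endogenous GATA2. There was 1 library per condition, so no value carries a replicate error, and the intervals below cover the counting of peaks only and treat the peaks of a cluster as independent.

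GATA2 is a zinc finger transcription factor of haematopoietic stem and progenitor cells that recognises the letters GATA flanked by A or T upstream and A or G downstream. Many regulatory genes of blood cells are surrounded by several enhancers bound by GATA factors together with partners such as TAL1 and LMO2, and such neighbouring sites lie within one regulatory domain. A site that a factor occupies in interphase and still occupies on condensed chromosomes is called bookmarked. Here an asynchronous peak was counted as bookmarked when it shared at least 1 base with a mitotic peak.

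The sequences of 7 mitotic peaks inside clusters show what the deposited positions contain. They were read from hg38, plus strand, and capitals mark GATA strings on either strand, meaning A or T, then GATA, then A or G. The first 4 are the widest mitotic peak of at most 300 bp in clusters with the most mitotic peaks.
near TBC1D7: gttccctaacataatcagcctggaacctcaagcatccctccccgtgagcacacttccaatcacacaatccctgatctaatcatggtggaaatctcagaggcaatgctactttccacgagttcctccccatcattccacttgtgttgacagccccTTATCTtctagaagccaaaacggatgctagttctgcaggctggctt
RHEX: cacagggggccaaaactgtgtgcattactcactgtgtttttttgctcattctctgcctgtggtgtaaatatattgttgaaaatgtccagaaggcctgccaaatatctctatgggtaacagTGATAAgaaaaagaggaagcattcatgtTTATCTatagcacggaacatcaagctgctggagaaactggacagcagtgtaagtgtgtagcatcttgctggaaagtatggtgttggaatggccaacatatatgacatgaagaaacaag
near SH3GLB1: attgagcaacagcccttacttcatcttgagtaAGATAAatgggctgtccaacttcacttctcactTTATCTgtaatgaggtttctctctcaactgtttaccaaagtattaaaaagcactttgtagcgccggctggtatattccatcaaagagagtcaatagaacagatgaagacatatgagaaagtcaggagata
TANC1: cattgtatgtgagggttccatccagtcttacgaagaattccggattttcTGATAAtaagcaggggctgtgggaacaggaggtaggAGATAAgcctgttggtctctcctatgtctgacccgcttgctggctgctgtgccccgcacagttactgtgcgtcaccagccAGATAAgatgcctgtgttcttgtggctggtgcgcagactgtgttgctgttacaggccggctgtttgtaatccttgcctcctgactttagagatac
The peak in the cluster near TBC1D7, at chr6:13372728-13372927, lay in an intron of GFOD1 and held 1 GATA string. The RHEX peak, at chr1:206074978-206075243, was intronic with 2 strings. The peak near SH3GLB1, at chr1:86774603-86774797, was intergenic, also with 2. The TANC1 peak, at chr2:159135499-159135758, held 3 strings and lay 441 bp from an annotated transcription start site (TSS) of that gene.

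A further 3 sequences come from clusters around blood genes described below and were added after their values were seen. In the PIM1 peak the capitals mark instead a match to a RUNX string, AACCACA, since no GATA string was found in its 170 bp.
HES1: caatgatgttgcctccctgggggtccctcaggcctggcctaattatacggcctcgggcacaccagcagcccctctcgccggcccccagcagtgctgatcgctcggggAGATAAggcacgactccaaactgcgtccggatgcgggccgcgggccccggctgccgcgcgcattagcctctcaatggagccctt
GFI1B: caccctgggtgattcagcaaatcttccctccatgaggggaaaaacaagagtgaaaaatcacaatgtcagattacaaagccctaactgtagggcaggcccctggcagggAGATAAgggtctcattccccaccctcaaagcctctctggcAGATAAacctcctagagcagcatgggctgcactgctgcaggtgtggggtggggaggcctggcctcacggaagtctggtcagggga
PIM1: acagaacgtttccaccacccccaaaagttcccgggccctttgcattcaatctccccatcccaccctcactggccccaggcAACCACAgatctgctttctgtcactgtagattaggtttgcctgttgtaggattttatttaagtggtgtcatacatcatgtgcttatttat
The HES1 peak, at chr3:194140755-194140945, was intergenic, 4607 bp from the nearest TSS of HES1, and held 1 GATA string. The GFI1B peak, at chr9:133004293-133004525, was intergenic, 17614 bp from the nearest TSS of GFI1B, and held 2. The PIM1 peak, at chr6:37191914-37192083, was intergenic, 19420 bp from the nearest TSS of PIM1. Across the 276 mitotic peaks in clusters, 267 (96.7%) held at least 1 GATA string over their whole width, beside 1309 of the 1372 mitotic peaks elsewhere (95.4%).

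The clusters were compact. They held 5 to 17 asynchronous peaks, with a median of 6, over a span of 4211 to 86615 bp, with a median of 24089 bp. Together they covered 15057695 bp, or 0.513% of the sequenced bases of the build. The median gap between neighbouring peaks was 3679 bp inside clusters, beside 23156 bp over the whole list, a difference that the choice of clusters fixed. Near the limits of that choice, the widest gaps joined were 12490, 12493 and 12493 bp and the narrowest gaps that ended a cluster were 12526, 12549 and 12552 bp. Chains of 4 peaks, which just missed, numbered 622. Of their 2488 peaks 5.75% were bookmarked (interval 4.87 to 6.74), against 7.84% (6.48 to 9.38) of the 1390 peaks in chains of 5. These intervals overlapped, and the median peak widths were 395.5 and 418 bp.

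Of the cluster peaks, 276 of 3604 were bookmarked (7.66%, interval 6.81 to 8.58), beside 5.04% of all asynchronous peaks. The other 28173 asynchronous peaks were bookmarked at 4.70% (4.46 to 4.95), a difference of 2.96 percentage points (Newcombe interval 2.1 to 3.90). The difference was 1.45 points (0.889 to 2.1) when a reciprocal overlap of 50% was required and 1.94 (1.39 to 2.52) with a chaining limit of 25 kb. Set beside the 13548 isolated peaks, of which 3.83% were bookmarked, the difference was 3.83 points (2.94 to 4.79). All 276 mitotic peaks within a cluster span lay on a cluster peak, and 0 lay in the gaps between. Cluster spans were drawn around asynchronous peaks and covered 0.513% of the sequenced bases, so the choice of clusters largely fixed this count. Over the whole mitotic list, 42 of 1648 peaks (2.55%) lay on no asynchronous peak. The share was lowest for isolated peaks and was 5.45% in chains of 2 and of 3. From 5 peaks upwards it lay between 6.39% and 8.99% with overlapping intervals, so no further rise with the size of the cluster was detectable.

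Cluster peaks were also wider. Their median width was 418 bp (interval 408 to 425), against 374 bp (371 to 376) for other peaks, and width moved strongly with bookmarking. Bookmarked cluster peaks had a median width of 720.5 bp and the rest 395 bp. Weighting the other peaks to the widths of the cluster peaks in 20 bins raised their bookmarked share to 6.34%. The remaining difference was 1.32 points (0.418 to 2.29). Clusters had the higher share in 14 of the 20 bins, but from 225 to 310 bp on only 1 bookmarked cluster peak per bin. The difference at equal width did not separate from 0 with a chaining limit of 5 kb (0.155 points, -1.68 to 2.34) or for clusters of at least 8 peaks (0.0828 points, -1.51 to 1.95). In the widest bin the shares were 32.5% for cluster peaks and 29.2% for other peaks. The peak lists hold no signal height, so how far width stands for the strength of a peak was not tested.

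Clusters on chromosome 2, singled out after its values were seen, had the highest bookmarked share of any chromosome, followed by chromosome 16 with 14.3% (12 of 84 cluster peaks, against 4.69% of its other peaks) and chromosome 6 with 10%. On chromosome 2, 53 of 347 cluster peaks were bookmarked (15.3%, interval 11.7 to 19.5), against 5.39% of the other peaks on that chromosome, a difference of 9.89 points (6.34 to 14.1). A mitotic peak was found in 34 of its 58 clusters, beside 210 of all 581 clusters (36.1%). Without chromosome 2 the bookmarked shares were 6.85% and 4.64%, a difference of 2.21 points (1.35 to 3.16). At equal width that difference fell to 0.673 points with an interval that included 0 (-0.229 to 1.65).

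Within a cluster, the bookmarked share fell with the rank of a peak by width. The widest peak of a cluster was bookmarked in 123 of 583 cases, ties included (21.1%, interval 17.9 to 24.6), the second widest in 13.6% and the third in 8.08%. Peaks ranked lower were bookmarked in 27 of 1858 cases (1.45%). Other peaks in the same width bins had shares of 18.8% at the widths of the widest, 10.4% at those of the second and 1.5% at those of the lower ranks. The widest peaks made up 44.6% of the bookmarked cluster peaks. By position, 7.78% of inner peaks and 7.40% of the first and last peaks were bookmarked (difference 0.379 points, -1.55 to 2.15). A cluster peak was bookmarked more often when its nearest neighbour was bookmarked too, at 13.5% (38 of 281) against 7.16%, a difference of 6.36 points (2.73 to 10.9). In 1 pair of neighbours a single mitotic peak overlapped both, and without those 2 peaks the difference was 5.74 points (2.18 to 10.3). Widths were not matched in this last comparison.

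Most clusters had no mitotic peak, and most of those with one had only one. A mitotic peak was present in 210 of the 581 clusters (36.1%, interval 32.2 to 40.2) and absent from the list in the other 371. Among the 210, 159 clusters had 1 mitotic peak, 37 had 2, 13 had 3 and 1 had 4. The share with a mitotic peak was 30.9% for clusters of 5 peaks and 56.3% for those of 10 to 17, with no allowance for the number of peaks. Under the same 12500 bp limit, no chain of mitotic peaks was longer than 3. Neighbouring mitotic peaks of one cluster were a median of 7916 bp apart (157 to 46978 bp, 66 gaps). Clusters with and without a mitotic peak had median spans of 24928 and 23885 bp and median densities of 2.45 and 2.42 peaks per 10 kb, while their widest peaks had median widths of 832.5 and 677 bp. A site without a mitotic peak may be unoccupied or may fall under the calling threshold, and the lists cannot tell these apart.

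The cluster of most mitotic peaks lay at chr6:13354222-13381262, near TBC1D7, a subunit of the TSC complex that restrains mTORC1. It had 5 asynchronous peaks, with widths of 639, 924, 388, 690 and 657 bp, and 4 mitotic peaks. The narrowest, at 388 bp, was the one that was not bookmarked. RHEX, a regulator of erythroid expansion downstream of the erythropoietin receptor, had 12 asynchronous peaks over 49610 bp (chr1:206065770-206115379) and 3 mitotic ones. Those 3 fell on peaks of 775, 448 and 585 bp in the upstream part of the cluster. Near SH3GLB1, a membrane-shaping protein, 4 of 10 peaks were bookmarked by 3 mitotic peaks. A mitotic peak of 808 bp overlapped part of both a 247 bp and a 770 bp asynchronous peak. On chromosome 2 lay 7 of the 14 clusters with 3 or more mitotic peaks, among them that at TANC1, a postsynaptic scaffold protein. Another of these, of 5 peaks, had no protein-coding TSS within 100 kb, the nearest being that of TRIB2 at 260247 bp.

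By contrast, the cluster with the most asynchronous peaks had no mitotic peak. It spanned 86615 bp (chr10:22616221-22702835), which also made it the longest, and lay wholly inside PIP4K2A, a phosphatidylinositol phosphate kinase. Its 17 peaks were 181 to 861 bp wide with a median of 366 bp. DENND2D and CHI3L2 shared a cluster of 12 peaks, and it was among the 4 of 9 clusters of that size with 0 mitotic peaks. The cluster with the next most peaks, near BTN3A2, a butyrophilin, had 2 mitotic peaks among 15, and that near PODXL, which encodes the sialomucin podocalyxin, had 2 among 13. Those near RESF1 and at SERP2 each had 2 among 12. The cluster at LGR4, a receptor for R-spondins, had 1 mitotic peak among 14 asynchronous peaks, and that near EED, a core subunit of Polycomb repressive complex PRC2, had 1 among 13. The cluster at ACVRL1 and ACVR1B, both type I receptors of the TGF-beta family, had 2 among 13.

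**Figure D1:**
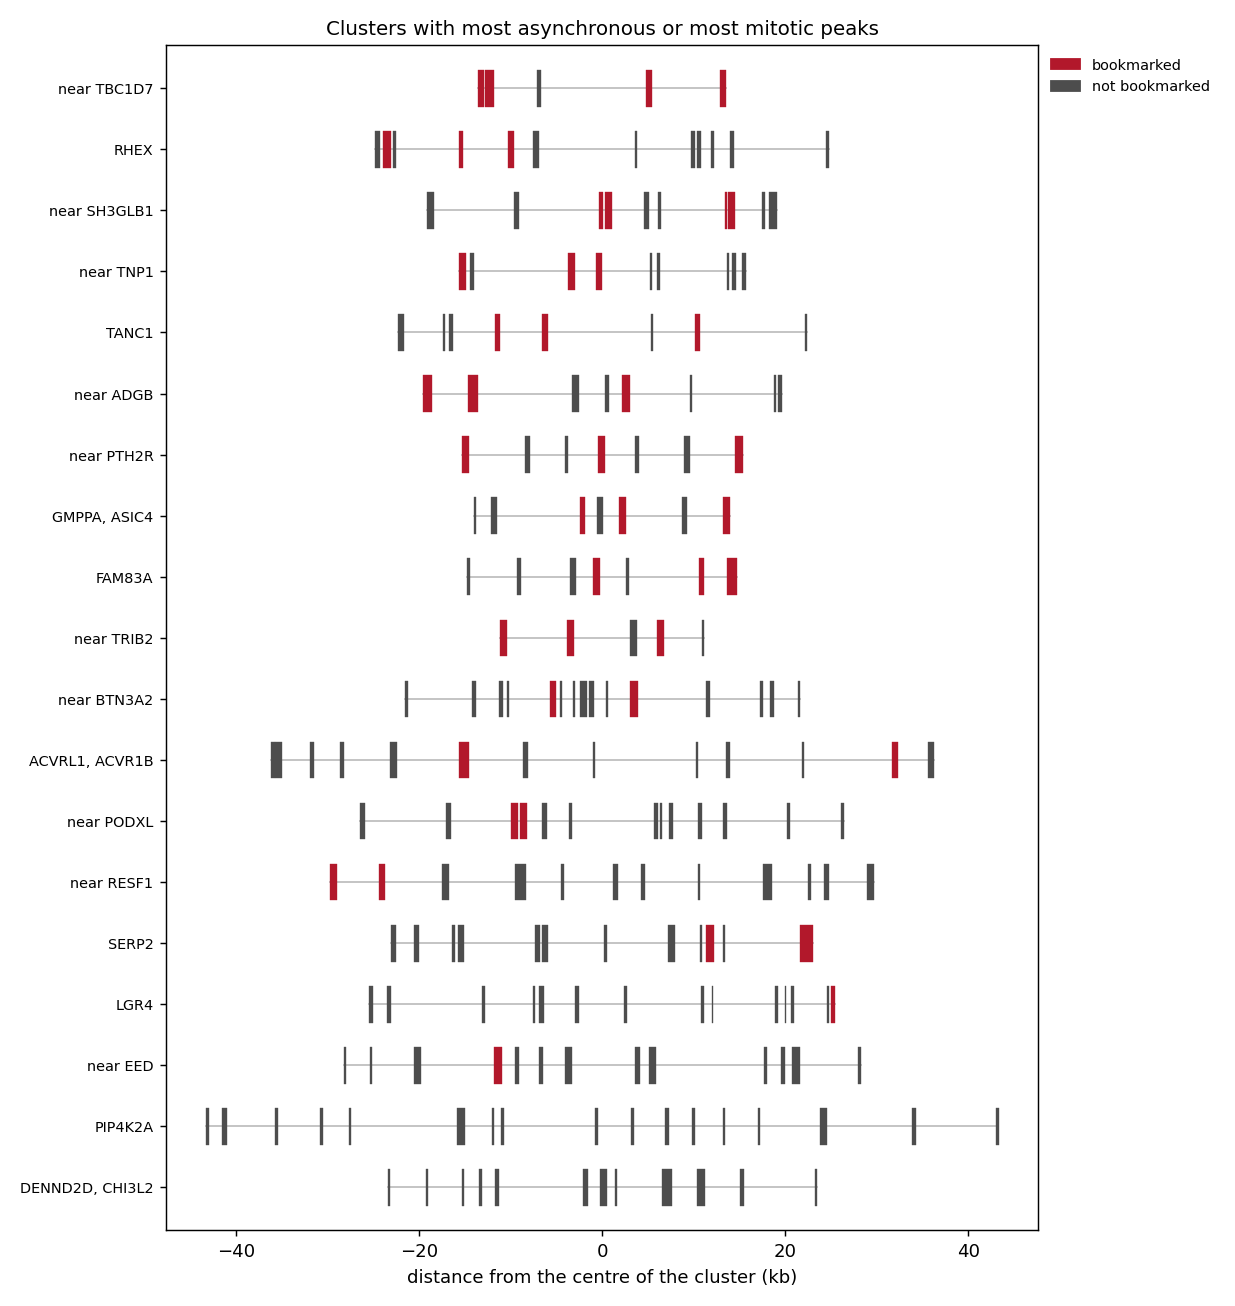
Positions of asynchronous peaks (boxes to scale) in the clusters with most asynchronous or most mitotic peaks, as distance from the centre of the cluster (kb), ordered by the number of mitotic peaks. Red boxes are bookmarked and grey boxes are not. Near TBC1D7, 4 of 5 peaks are red, while none of the 17 peaks at PIP4K2A is.

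The clusters were set beside lists of protein-coding genes. As background, 335 of 20007 protein-coding genes (1.67%) had a TSS of any annotated transcript inside a cluster. Among haematopoietic transcription factors this held for 8 of 32 genes (25%, interval 11.5 to 43.4), namely GATA1, GATA2, ZFPM1, LMO2, GFI1B, HES1, NFE2 and TEAD1. It held for 3 of 23 red cell membrane and iron genes (GYPB, SPTB and RHCE) and for 2 of 18 genes of cytokine receptors and their signalling (CSF3R and PIM1). None of 22 globin and heme genes and none of 18 megakaryocyte and platelet genes lay in a cluster, with upper limits of 15.4% and 18.5%. The lists of genes of other lineages (0 of 20) and of cytosolic ribosomal proteins (0 of 30) also had none. Over the 5 blood lists, 13 of 113 genes had a TSS in a cluster (11.5%, interval 6.27 to 18.9), and 10 of these 13 clusters held a mitotic peak, beside 36.1% of all clusters. The lists were drawn up with earlier results of these data known, so their counts are a description. They hold genes that the study itself names as bookmarked from this mitotic library, GATA2 and HES1 among them. The 10 of 13 was therefore partly set by the choice of genes and does not measure enrichment. The count of 13 depended on the definition, at 3 with a chaining limit of 5 kb, 3 for clusters of at least 8 peaks, 17 when any part of the gene body counted and 22 when each cluster peak was given to its nearest TSS.

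At most of the transcription factor loci, 1 of several peaks was bookmarked. At GATA1, the factor that takes over from GATA2 in erythroid cells, the cluster on chrX:48782789-48801237 held 6 asynchronous peaks of 622, 606, 250, 464, 287 and 789 bp. Only the last was bookmarked, and it lay 140 bp from a TSS of the neighbouring gene HDAC6 and held 8 GATA strings. ZFPM1, which encodes FOG1, the cofactor of GATA proteins, had a cluster of 8 peaks of 181 to 1226 bp and 2 mitotic peaks, on those of 762 and 1226 bp, both in its promoter region within 3 kb of a TSS. Another cluster wholly within its gene body (chr16:88491406-88509474) held 6 peaks and 2 mitotic peaks. At NFE2, a leucine zipper factor of globin and platelet genes, 1 of 8 peaks in the cluster was bookmarked. It was 677 bp wide and lay over a TSS of NFE2 itself. The cluster also held a TSS of HNRNPA1 and of COPZ1, and 4 of its 8 peaks were nearest to NFE2. GFI1B, a repressor needed for erythroid and megakaryocytic cells, had 7 peaks of 235 to 922 bp, and the bookmarked one was the last, of 784 bp. At TEAD1, a partner of the Hippo pathway's YAP, the bookmarked peak was the widest of 6 in the cluster that holds a TSS, at 609 bp, and another cluster of 6 peaks in the gene had 0 mitotic peaks.

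At HES1, a target of Notch signalling, the bookmarked peak was the narrowest of 6, at 271 bp, whereas the widest, at 1074 bp, was not bookmarked. LMO2, the bridging protein of the GATA and TAL1 complex, had 9 peaks over 20371 bp (chr11:33878909-33899279), with widths of 319 to 629 bp, and 0 mitotic peaks. A further cluster of 5 peaks, 44809 bp from the nearest TSS of LMO2 (chr11:33936885-33958064), had 1 mitotic peak. Of the 9 around the TSS, 5 lay in the promoter region and 8 held a GATA string. At GATA2 itself the bookmarked peak was the widest of 5, at 641 bp.

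Among the other blood genes, GYPB, which encodes glycophorin B, had 6 peaks, and the 376 bp peak over its TSS was the bookmarked one. CSF3R, the receptor for granulocyte colony-stimulating factor, had 6 peaks, with a 479 bp bookmarked peak 9271 bp from its nearest TSS. PIM1, a serine/threonine kinase induced by cytokines, had 7 peaks, of which 1 of 372 bp was bookmarked. SPTB, which encodes beta-spectrin of the red cell skeleton, and RHCE, of the Rh blood group, had clusters of 6 and 5 peaks. Neither cluster had a mitotic peak, and in each 4 of the peaks were nearest to the named gene. The RHCE cluster also held a TSS of MACO1. GYPB and RHCE have near-identical neighbouring copies, so unique mapping can remove reads there and their peak counts are uncertain.

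**Figure D2:**
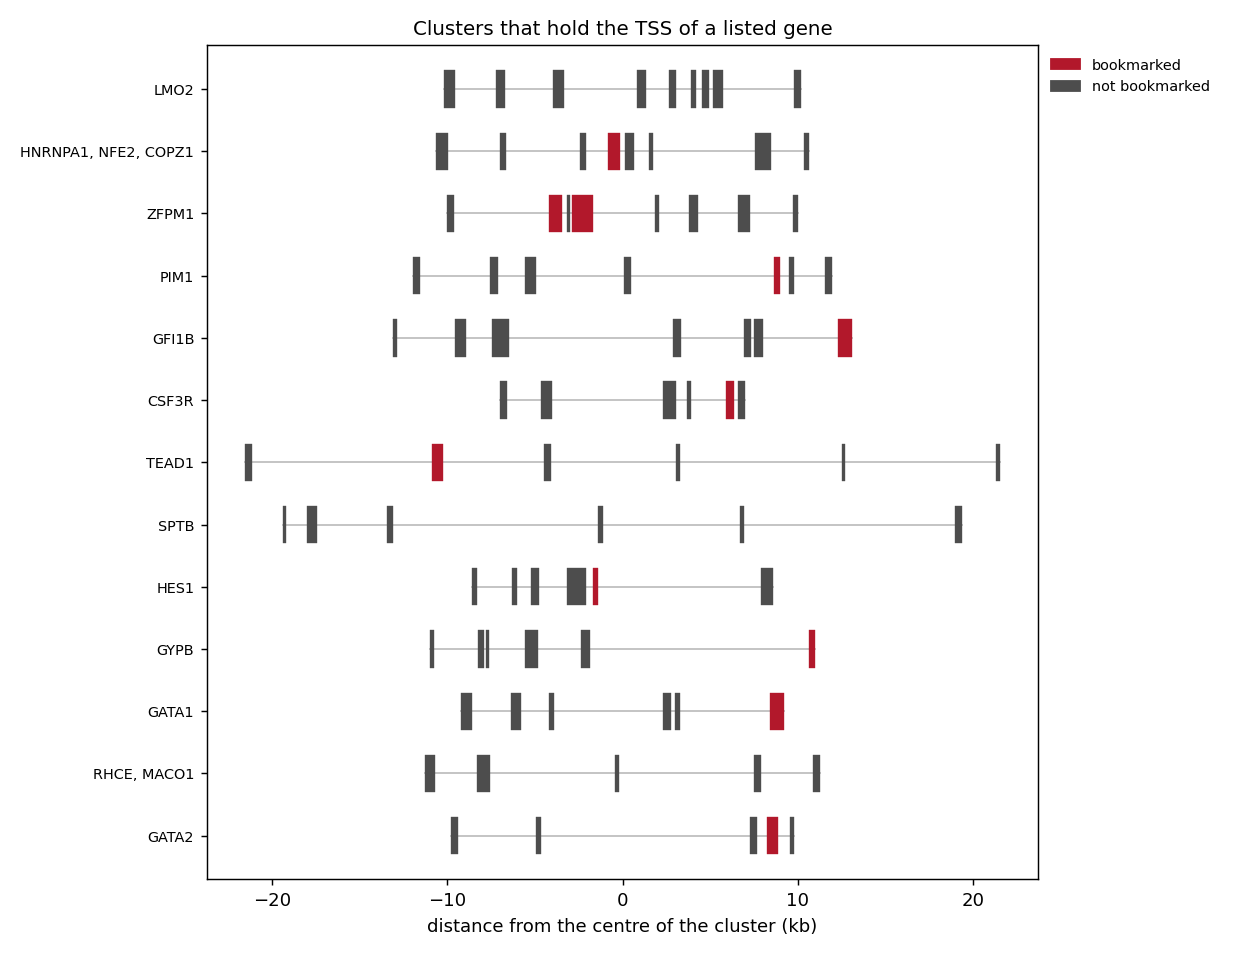
Asynchronous peaks (boxes to scale) in the 13 clusters that hold a TSS of a listed blood gene, as distance from the centre of the cluster (kb), with bookmarked peaks in red. Most clusters with a red box have 1, ZFPM1 has 2, and LMO2, SPTB and RHCE have none.

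The strings under the peaks differed between clusters and the rest of the list. Over whole peaks, 93.1% of cluster peaks and 93.0% of other peaks held a GATA string (difference 0.0984 points, -0.825 to 0.940). In the central 200 bp, which removes the effect of peak width on the length searched, the shares were 81.8% and 85.3% (-3.50 points, -4.86 to -2.21). For the single string AGATAA they were 52.2% and 58.4% (-6.13 points, -7.86 to -4.41), and at equal peak width the difference was -5.36 points. Over whole peaks AGATAA was in 67.8% and 70.2% (-2.48 points, -4.11 to -0.880). In the central 200 bp, the share with AGATAA was 60.4% in isolated peaks, 54.4% in chains of 4 and 48.8% in clusters of 10 to 17 peaks. In chains of 5 to 9 peaks it lay between 49.8% and 53.9% with overlapping intervals, so no fall with size was detectable within the clusters. The composite of CTG and GATAA separated by 8 bases, the form bound by GATA factors with TAL1, was also counted in the central 200 bp. It was in 4.44% of cluster peaks and 6.55% of other peaks (-2.11 points, -2.80 to -1.33). In the same windows, a RUNX string (AACCACA), an ETS string (AGGAAGT) and the AP-1 strings (TGACTCA and TGAGTCA) differed by -0.434, -0.286 and 0.248 points, with intervals that included 0. So did the interval for the CACCC string (CCACACCC, 0.245 points), while that for the E-box (CAGCTG) did not (-1.36 points, -2.52 to -0.129). Over whole peaks these 2 were reversed. The CACCC interval left out 0 (0.877 points, 0.184 to 1.66) and the E-box interval included it (1.26 points, -0.222 to 2.78). Windows of 200 bp in the gaps between cluster peaks held a GATA string in 30.7% of 2644 cases and AGATAA in 10.9%, below the peaks on both counts. All strings were searched on both strands, and AGATAA is one of the GATA strings.

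Bookmarked cluster peaks held AGATAA in the central 200 bp more often than the cluster peaks that were not bookmarked, at 59.8% against 51.6% (8.19 points, 2.07 to 14.1). Outside clusters the shares were 62.8% and 58.1%, again higher in bookmarked peaks. For any GATA string the shares were 80.8% and 81.9% (-1.11 points, -6.33 to 3.31). The composite stood at 6.16% and 4.30% (1.86 points, -0.534 to 5.40). Over whole peaks, 5 of the 250 cluster peaks without a GATA string were bookmarked (2.0%), as at PIM1, against 8.08% of those with one. The other peaks stood at 1.21% and 4.96%, the same direction. Widths were not matched here, and wider peaks give more sequence to search.

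By the midpoint of the peak, 17.6% of cluster peaks lay within 3 kb of a protein-coding TSS, against 20.9% of other peaks (-3.21 points, -4.51 to -1.84). Introns held 43.6% of cluster peaks and 37.5% of other peaks (6.10 points, 4.39 to 7.82). Intergenic positions made up 37.4% and 39.6%. Of the mitotic peaks in clusters, 13% were in promoter regions, beside 19.1% of the mitotic peaks elsewhere. Inside clusters, 8.83% of intergenic peaks, 7.58% of intronic peaks and 5.50% of promoter peaks were bookmarked, beside 5.15%, 4.57% and 4.20% of the other peaks, which fell in the same order. The difference from the other peaks was 3.68 points (2.21 to 5.36) for intergenic peaks and 3.01 points (1.74 to 4.48) for intronic peaks, while the interval for promoter peaks included 0 (1.30 points, -0.315 to 3.41). Of the 581 clusters, 267 (46.0%) held a protein-coding TSS and 233 (40.1%) lay wholly within 1 gene body. For 47 clusters no protein-coding TSS was found within 100 kb.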

How the data were processed

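GATA2 ChIP-seq was analysed from 1 asynchronous and 1 mitotic K562 library, and the input libraries were not used here. Per the submitters' notes and the study's methods, the authors aligned reads to hg38 with BWA 0.7.12, kept uniquely mapped reads, extended them, called peaks with MACS2 2.1.0 and Genrich 0.6.1, removed blacklisted regions and handled coverage with deepTools 2.5.4. How the callers were combined, their thresholds and the depth of the libraries were not given in the sources used here. The deposited values are peak positions in bp in 3 columns, with no score or height. Locations follow GENCODE release 44. Shares carry 95% exact binomial intervals and differences carry Newcombe intervals, computed with Python 3.11.15, pandas 2.3.3 and scipy 1.17.1. The interval at equal width combines the exact interval with the counting error of the weighted share. The routines were tested on simulated data. The members, gene lists and strings were chosen with earlier results of these data known. Clusters are named by the following rule: the 10 with most asynchronous peaks, the 10 with most mitotic peaks, the longest, the densest and those holding a TSS of a listed gene. The densest is not reported here. Ties (9 clusters at the 10th place by asynchronous peaks and 13 by mitotic peaks) were settled by position, for mitotic peaks after the number of asynchronous peaks. The further clusters at ZFPM1, TEAD1, LMO2 and MIR223 and among the histone genes fall outside this rule and were chosen after their values were seen. The alternatives were other chaining limits, overlap rules, width bins, strings and gene assignments.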

Additional observations from a re-analysis of the deposited data

How the results depend on the processing

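Of 40 values under alternative settings, 22 stayed within the interval of the reported value, or within 1.5 times a reported count, and 18 moved. The bookmarked difference was 1.94 points at a 25 kb chaining limit, 2.09 for clusters of at least 8 peaks and 1.45 with a reciprocal overlap of 50%. The share of clusters with a mitotic peak was 31.3% at 5 kb, 28.7% from 4 peaks and 43% from 8. At equal width the difference was 0.155 points at 5 kb (-1.68 to 2.34) and 0.0828 from 8 peaks (-1.51 to 1.95), and without chromosome 2 it was 0.673 (-0.229 to 1.65), so none of these separated from 0. The median width was 444 bp at 5 kb, 399 bp at 25 kb and 425.5 bp from 8 peaks. The difference in GATA strings was -3.50 points in 200 bp and -2.48 for AGATAA alone over whole peaks. Listed genes numbered 22 by nearest TSS, 3 at 5 kb and 3 from 8 peaks. Clusters with 2 or more mitotic peaks fell from 51 to 11 at 5 kb and 17 from 8 peaks, and to 39 without chromosome 2, an alternative chosen after seeing the data. The limits of 5 kb and 8 peaks left 131 and 100 clusters. The cause of these shifts was not tested. With 1 library per condition, no paired or leave-one-out comparison exists, and calling depth limits every absent mitotic peak.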

Other observations

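Some further clusters stood out after the values were seen. A cluster of 9 asynchronous peaks over 45757 bp on the X chromosome held MIR223, the gene of a microRNA of the myeloid lineage, and had 1 mitotic peak. In all, 14 clusters (2.41%) held a microRNA gene, and 59 (10.2%) held the TSS of a long non-coding RNA without one of a protein-coding gene. The most protein-coding genes with a TSS in 1 cluster was 7, in a cluster of 6 asynchronous peaks and 0 mitotic peaks among the histone genes of chromosome 6.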
